A study of Mus musculus with 3 samples.

Results

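The small leucine-rich proteoglycans were followed in primary mouse embryonic fibroblasts labelled SA1-null and wild type. The 10 genes are Dcn, Bgn, Aspn, Lum, Fmod, Prelp, Omd, Ogn, Epyc and Podn. They were found by matching each probe's RefSeq transcript to these symbols, which gave 12 of the 41174 probes of the array and 10 of its 33269 genes or transcripts. Prelp and Epyc had 2 probes each, and the other 8 genes had 1 probe each. In all, 11 of the 12 probes and all 10 genes passed the filter on dim spots, which left 18485 genes or transcripts to test.

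The fibroblasts came from E12.5 embryos, were untreated, and grew in DMEM with 10% serum. SA1, encoded by Stag1, is one of the alternative subunits of cohesin, a ring complex needed for sister chromatid cohesion and for looping of chromatin. The samples labelled SA1-null were in Cy3 and those labelled wild type in Cy5, 1 of each per 2-colour Agilent array, over biological replicates 1 to 3. The labels do not say how the SA1-null allele was made, whether a sample came from 1 embryo or a pool, or what passage the cells had. With no dye swap, the effect of dye and that of genotype cannot be told apart.

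Proteoglycans of this family have a core protein built from leucine-rich repeats, most with a chondroitin, dermatan or keratan sulfate chain. They are secreted by fibroblasts and by cartilage, tendon and bone cells, bind collagen fibrils and set their diameter and spacing. Several also bind growth factors such as those of the TGF-beta family. The genes sit in small clusters: in the RefSeq gene table Dcn, Lum, Kera and Epyc follow each other on chromosome 10, Aspn, Omd and Ogn on chromosome 13, and Prelp lies next to Fmod on chromosome 1. Bgn is on the X chromosome.

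The promoter sequences shown were picked by the values of their genes, and their part in those values was not tested. They are those of the neighbours Aspn, Omd and Ogn, of Prelp, whose ratio on replicate 1 went the other way, and of Bgn, whose signal differed least between the slides. RefSeq windows (build GRCm38.p6) matched 8 of the 10 genes, all but Dcn and Lum. Each line gives, for the gene's first listed start, the 250 bases before the annotated start, 5′ to 3′ on the gene's strand. Capitals mark matches on either strand to the TATA box (TATAAA), the CCAAT box, the GC box (GGGCGG), the AP-1 motif (TGA, any base, TCA), the RUNX motif (TGTGGT) and a CTCF core motif.
Aspn, chr13:49544193-49544442, + strand: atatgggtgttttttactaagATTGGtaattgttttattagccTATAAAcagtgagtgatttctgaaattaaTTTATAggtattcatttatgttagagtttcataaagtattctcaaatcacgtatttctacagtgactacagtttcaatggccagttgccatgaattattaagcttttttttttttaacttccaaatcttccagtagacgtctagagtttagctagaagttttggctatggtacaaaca
Omd, chr13:49582212-49582461, + strand: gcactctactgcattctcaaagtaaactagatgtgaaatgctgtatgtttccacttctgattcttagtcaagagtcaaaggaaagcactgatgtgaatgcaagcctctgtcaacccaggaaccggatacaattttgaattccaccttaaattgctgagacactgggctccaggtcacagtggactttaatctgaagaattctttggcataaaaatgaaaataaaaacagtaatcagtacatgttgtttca
Ogn, chr13:49607765-49608014, + strand: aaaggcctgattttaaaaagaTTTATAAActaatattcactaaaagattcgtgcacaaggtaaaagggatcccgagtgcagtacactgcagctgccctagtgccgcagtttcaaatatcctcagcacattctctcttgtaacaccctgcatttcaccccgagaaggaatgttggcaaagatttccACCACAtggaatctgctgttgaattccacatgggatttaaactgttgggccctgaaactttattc
Prelp, chr1:133921402-133921651, - strand: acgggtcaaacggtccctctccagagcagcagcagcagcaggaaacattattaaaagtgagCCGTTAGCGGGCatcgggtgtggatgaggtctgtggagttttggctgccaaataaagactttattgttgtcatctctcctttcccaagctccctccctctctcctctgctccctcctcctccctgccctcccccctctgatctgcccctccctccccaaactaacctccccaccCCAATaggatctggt
Bgn, chrX:73483351-73483600, + strand: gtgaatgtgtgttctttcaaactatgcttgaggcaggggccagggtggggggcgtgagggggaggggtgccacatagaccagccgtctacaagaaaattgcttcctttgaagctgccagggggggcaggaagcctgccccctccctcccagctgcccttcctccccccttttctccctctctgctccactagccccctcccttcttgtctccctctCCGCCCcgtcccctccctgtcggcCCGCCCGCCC
The Aspn window held 2 matches to TATAAA and 1 to CCAAT. The Ogn window held 2 overlapping matches to TATAAA, on opposite strands, and 1 to TGTGGT. Omd held none of the 6 motifs. Prelp held 1 match to CCAAT and 1 to the CTCF core, and Bgn held 3 to the GC box, of which 2 overlapped. Over all 32851 promoter windows of this length, the TATA box was found in 12.4%, CCAAT in 33.8%, the GC box in 32.7%, the AP-1 motif in 6.75%, the RUNX motif in 14.0% and the CTCF core in 7.17%. The 3 neighbours on chromosome 13 had a GC content of 30.0%, 38.4% and 42.0%, against 64.4% in Bgn and a median of 52.4% over all windows. These matches describe the letters only.

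On each array, 60.6 to 67.0% of probes were well above background in either channel, and no spot of these genes was flagged (0 on each array). Replicate 1 was on its own slide and replicates 2 and 3 shared another. Stag1 itself had a log2 ratio of SA1-null over wild type of 3.52 ± 0.21 (SD, n = 3, limma adjusted p = 0.0273), a direction opposite to what a loss of SA1 would give. Below, "SA1-null channel" and "wild type channel" mean only the channels so labelled, and ratios run SA1-null over wild type. Were the channel labels exchanged, each direction given here would be the reverse. In the log2 values that the authors deposited, the direction is Cy5 over Cy3.

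All 10 genes had a mean log2 ratio above 0, with a median of 0.70, but none passed the test. Over all genes tested, 45.6% were above 0 and the median was -0.02. With median centring in place of loess, which moved the median of all genes to -0.30, 7 of the 10 were above 0, with a median of 0.32. With limma's moderated test and Benjamini-Hochberg adjustment, 0 of the 10 genes were called at 0.05, where 0.314% of all genes were called, 0.0108% as higher in the SA1-null channel. At an unadjusted p under 0.05, 2 of the 10 (Bgn and Aspn) were found, against 7.49% of all genes. The array medians over the 10 genes were 1.71, 0.12 and 0.02 on replicates 1, 2 and 3, so the shift lay on replicate 1. On replicates 1, 2 and 3, 9, 7 and 5 of the 10 were above 0, against 46.4%, 46.9% and 46.5% of all genes. The signals also differed between the slides. In 7 of the 10 the normalized signal was at least 4-fold higher on replicate 1 than the mean of replicates 2 and 3 in both channels, where 1.36% of all genes were.

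**Figure D1:**
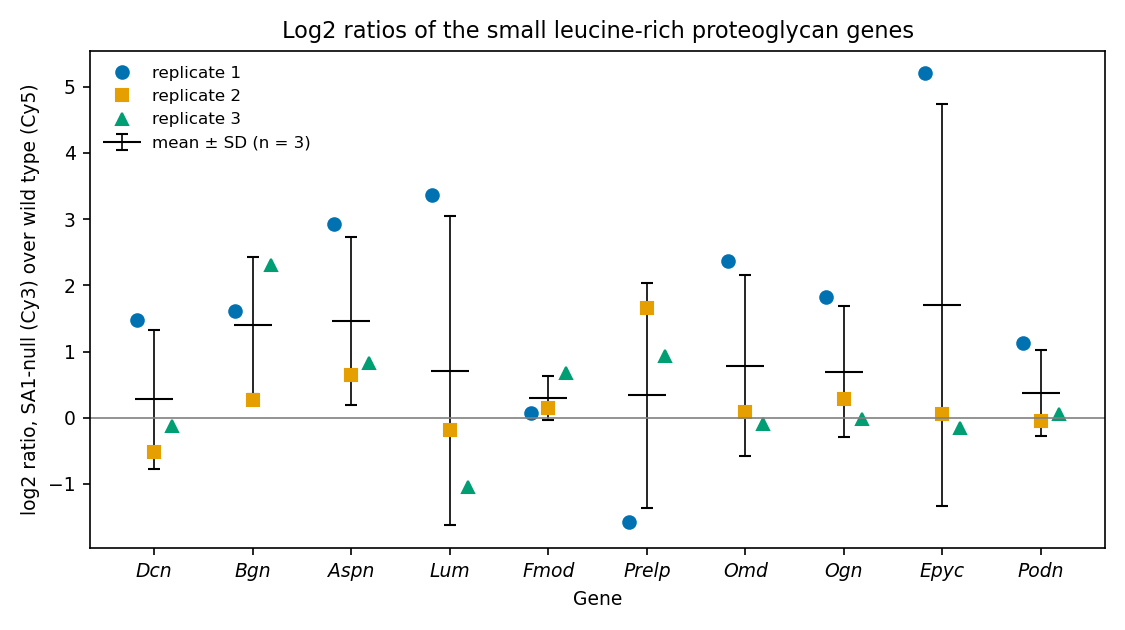
Log2 ratio of the channel labelled SA1-null (Cy3) over the channel labelled wild type (Cy5) for each gene at its brightest probe, with 1 symbol per array and a bar for the mean ± SD of 3 arrays. On replicate 1, 8 of the 10 genes lay at 1 or more and Prelp at -1.58, while most values of replicates 2 and 3 lay nearer 0.

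Decorin, biglycan and asporin form the first class of the family, whose members carry chondroitin or dermatan sulfate chains or, in asporin, an aspartate stretch. Bgn, which encodes biglycan, a binder of collagen and of growth factors, had normalized log2 signals of 13.92, 12.72 and 14.86 in the SA1-null channel. In the wild type channel they were 12.31, 12.45 and 12.55. The wild type signals lay within 0.24 of each other, and all 3 SA1-null signals were above all 3 wild type signals. Bgn was the 1 gene of the 10 without overlap in that direction, which 2.8% of all genes showed. In the other direction 0 of the 10 were without overlap, against 6.12% of all genes. Its log2 ratios were 1.61, 0.27 and 2.31, with a mean of 1.39 ± 1.04 (SD, n = 3, 2.63-fold, 95% interval 0.32 to 2.47), and it did not pass (limma unadjusted p = 0.0212, adjusted p = 0.550).

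Bgn is X-linked, and the arrays differed in the sex-linked genes. The Y-linked genes Ddx3y, Eif2s3y, Kdm5d and Uty were well above background in both channels of replicate 1 and in neither channel of replicates 2 and 3. Xist, the RNA that silences an X chromosome in female cells, was not well above background in either channel of replicate 1. It was so in Cy5 on replicate 2 and in both channels on replicate 3. The Xist spots were dim throughout, at 24, 39 and 48 in Cy3 and 60, 83 and 72 in Cy5. Each was below the median spot of its array and channel (67, 55 and 68 in Cy3, 234, 108 and 97 in Cy5). The part of embryo sex in the Bgn ratios was not tested.

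Aspn encodes asporin, a collagen-binding protein that lacks a sugar chain and binds TGF-beta. Its normalized log2 signals were 13.84, 9.79 and 9.46 in the SA1-null channel and 10.92, 9.14 and 8.64 in the wild type channel. Replicate 1 was highest in both channels, and the ranges of the channels overlapped. The SA1-null channel was higher on every array, with log2 ratios of 2.92, 0.64 and 0.82 and a mean of 1.46 ± 1.27 (SD, n = 3, 2.75-fold, 95% interval 0.17 to 2.75). It did not pass (limma unadjusted p = 0.0338, adjusted p = 0.630), and without replicate 1 its mean was 0.73.

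Dcn encodes decorin, which coats collagen fibrils and binds TGF-beta. It had normalized log2 signals of 14.05, 9.23 and 8.95 in the SA1-null channel and 12.58, 9.75 and 9.07 in the wild type channel. Both channels were high on replicate 1, by 31.1-fold in Cy3 and 9.01-fold in Cy5 over the mean of the other arrays. Between the genotypes the sign was not the same on all arrays: the log2 ratios were 1.47, -0.51 and -0.12, with a mean of 0.28 ± 1.05 (SD, n = 3, limma adjusted p = 0.874). The 95% interval ran from -0.81 to 1.37. Without replicate 1 the mean was -0.32.

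The second class holds the keratan sulfate proteoglycans. Lum encodes lumican, which spaces collagen fibrils in cornea, skin and tendon. Its normalized log2 signals were 14.97, 8.16 and 7.17 in the SA1-null channel and 11.61, 8.35 and 8.21 in the wild type channel. The slide difference of Lum in the SA1-null channel, 157-fold, ranked 4 among all 18485 genes, and in the wild type channel it was 10.0-fold. The log2 ratios were 3.36, -0.19 and -1.04, so that replicate 1 opposed the others. The mean was 0.71 ± 2.33 (SD, n = 3, limma adjusted p = 0.846, 95% interval -1.60 to 3.02), and without replicate 1 it was -0.62.

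Prelp encodes a protein that ties collagen to basement membranes and has a basic end that binds heparan sulfate. At its brighter probe the normalized log2 signals were 14.09, 9.48 and 8.77 in the SA1-null channel and 15.67, 7.82 and 7.83 in the wild type channel. Its slide difference in the wild type channel, 230-fold, ranked 3 among all genes, and before normalization the spot read 118448, 204 and 177 there. Prelp was the 1 gene of the 10 below 0 on replicate 1. The log2 ratios were -1.58, 1.66 and 0.94, with a mean of 0.34 ± 1.70 (SD, n = 3, limma adjusted p = 0.905, 95% interval -1.36 to 2.04). The mean was 1.30 without replicate 1 and -0.32 without replicate 2. The second Prelp probe was dimmer, and its Cy5 spots were well above background on only 2 arrays. Its slide difference was 2.62-fold in Cy3, which is under 4-fold, and 4.87-fold in Cy5. It gave log2 ratios of -0.84, -0.02 and 0.13. It shared the sign of replicate 1 but not that of replicate 2.

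Fmod encodes fibromodulin, which binds collagen and guides the joining of thin fibrils into thick ones. Its normalized log2 signals were 13.38, 9.81 and 10.13 in the SA1-null channel and 13.30, 9.66 and 9.45 in the wild type channel. The slide difference was of like size in both channels, 10.6-fold in Cy3 and 13.4-fold in Cy5. Fmod had the narrowest spread of ratios among the 10 genes, 0.08, 0.15 and 0.68, with a mean of 0.30 ± 0.33 (SD, n = 3, limma adjusted p = 0.716). The 95% interval was -0.19 to 0.79.

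Omd encodes osteomodulin, a keratan sulfate proteoglycan known from bone and tooth. Its normalized log2 signals were 11.58, 6.92 and 6.40 in the SA1-null channel and 9.22, 6.82 and 6.50 in the wild type channel. On replicates 2 and 3 its spots read 48 to 102, against backgrounds of 31 to 56. The log2 ratios were 2.36, 0.09 and -0.10, with a mean of 0.78 ± 1.37 (SD, n = 3, limma adjusted p = 0.724, 95% interval -0.60 to 2.17). The ratio of replicate 1 stood alone, and without it the mean was -0.0040.

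Of the third class, Ogn encodes osteoglycin, also called mimecan, a collagen-binding protein of connective tissue and bone. It had normalized log2 signals of 16.74, 12.11 and 11.25 in the SA1-null channel and 14.92, 11.83 and 11.27 in the wild type channel. Both channels were high on replicate 1, 33.3-fold and 10.3-fold over the mean of the other arrays. The log2 ratios were 1.82, 0.29 and -0.02, with a mean of 0.70 ± 0.99 (SD, n = 3, limma adjusted p = 0.709, 95% interval -0.34 to 1.73). Without replicate 1 the mean was 0.13.

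Epyc encodes epiphycan, a proteoglycan of growth plate cartilage. It had the largest single ratio of the 10 genes, and it was on 1 channel of 1 array that its signal was high. The normalized log2 signals were 11.47, 6.93 and 6.71 in the SA1-null channel and 6.27, 6.88 and 6.87 in the wild type channel. The wild type sample of replicate 1 was the lowest of the 6 after normalization, although its spot, at 208, read above the 109 and 93.5 of the other wild type samples. The log2 ratios were 5.20, 0.05 and -0.15, with a mean of 1.70 ± 3.03 (SD, n = 3, limma adjusted p = 0.724, 95% interval -1.29 to 4.69), and without replicate 1 the mean was -0.05. The second Epyc probe gave 4.15 on replicate 1 and was well above background on that array only, in both channels, so no mean is given for it.

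Podn encodes podocan, a member of the fifth class known from smooth muscle and kidney. Its normalized log2 signals were 8.70, 6.39 and 6.45 in the SA1-null channel and 7.58, 6.43 and 6.40 in the wild type channel. The slide difference was 4.86-fold in Cy3 and 2.24-fold in Cy5. The log2 ratios were 1.13, -0.04 and 0.05, with a mean of 0.38 ± 0.65 (SD, n = 3, limma adjusted p = 0.738, 95% interval -0.35 to 1.11). Without replicate 1 the mean was 0.0048.

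**Figure D2:**
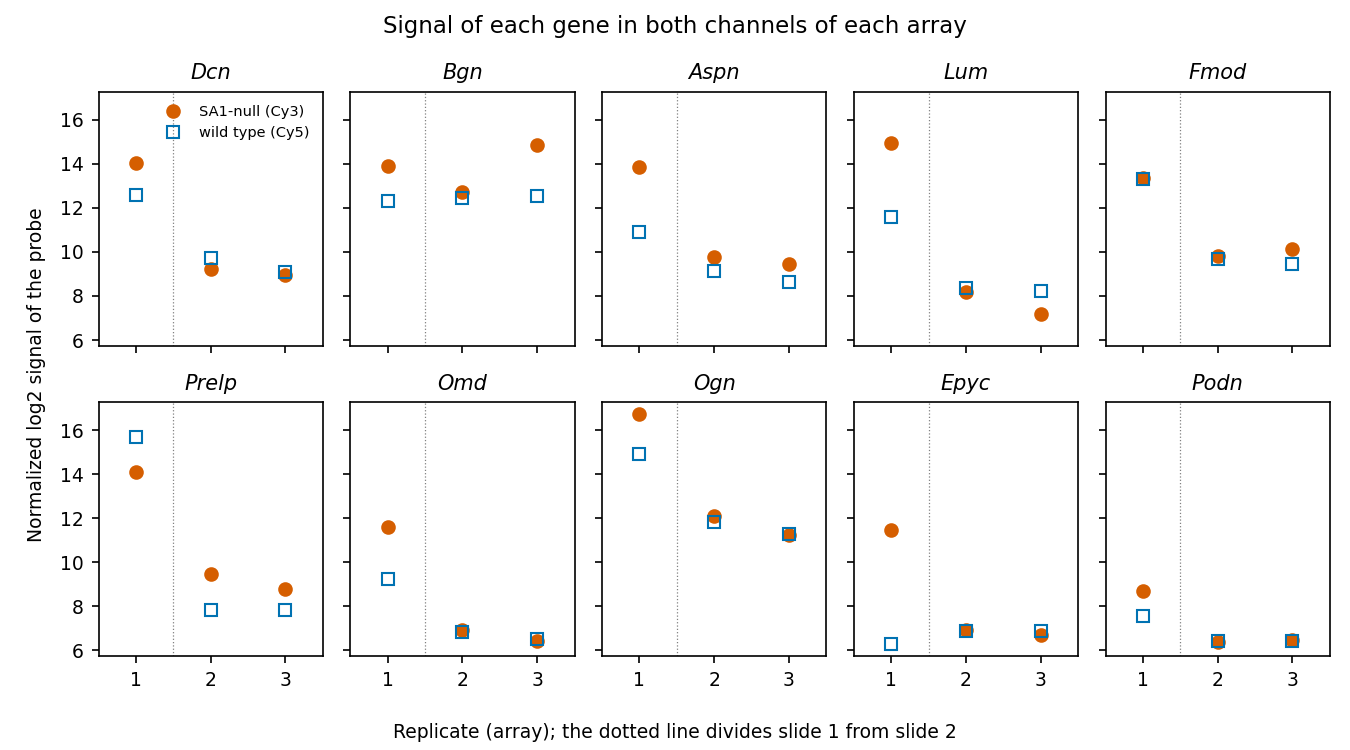
Normalized log2 signal of each gene's brightest probe on each array, with filled circles for the channel labelled SA1-null (Cy3) and open squares for the channel labelled wild type (Cy5). A dotted line divides replicate 1 on its slide from replicates 2 and 3 on theirs. Replicate 1 was above both others in 9 of 10 genes in Cy3 and 8 of 10 in Cy5, and signals of different probes are not comparable with each other.

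Within the slides the picture differed. On replicate 1, 8 of the 10 genes had a log2 ratio of at least 1, against 4.43% of all genes, and 9 of 10 were at least 1 in either direction, against 14%. On replicate 2 Prelp alone was past 1 (1 of 10, against 0.362% of all genes at 1 or more and 1.97% in either direction). On replicate 3 Bgn was at 1 or more (1 of 10, all genes 2.36%) and Lum at -1 or less, which made 2 of 10 in either direction (all genes 5.83%). Bgn, Aspn and Fmod were above 0 on all 3 arrays (3 of 10, against 13.3% of all genes), and 0 were below 0 on all 3 (19.1% of all genes). On replicates 2 and 3 alone, 4 genes were above 0 on both (Bgn, Aspn, Fmod and Prelp) and Dcn and Lum were below 0 on both. With the slide as a fixed term in limma, where only the 2 arrays that shared a slide gave a spread, 5 of the 10 genes passed (Aspn, Lum, Omd, Ogn and Epyc), where 9.58% of all genes did. The fitted value of Lum in that model was 1.37, the midpoint between slides of opposite sign (3.36 and -0.62). That of Prelp was -0.14. An exact permutation test over signs has a smallest two-sided p of 0.25 with 3 arrays.

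The slide difference was found in most of the 10 genes and varied in size among them. In the SA1-null channel 9 of the 10 genes were at least 4-fold higher on replicate 1, where 2.48% of all genes were. In the wild type channel 7 were, where 4.35% of all genes were. The difference was not particular to these genes. At least 4-fold higher on replicate 1 in both channels were 6 of 17 macrophage and blood cell markers and 3 of 8 cartilage markers, described below. Of the 9 fibroblast and 4 tendon markers tested, 0 were. Prelp, at its brighter probe only, ranked 6 of 18485 genes by the smaller of its 2 channel differences, Fmod 43, Ogn 44, Lum 46 and Dcn 53. Bgn had nearly the same mean signal on both slides (a log2 difference of 0.12 in Cy3 and -0.19 in Cy5), and Epyc differed only in Cy3 (4.65, against -0.61 in Cy5). With 1 array on slide 1, there is no test of this difference. The slides differed as well in Feature Extraction version and in the Y-linked genes, and the part of each in the difference was not tested.

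**Figure D3:**
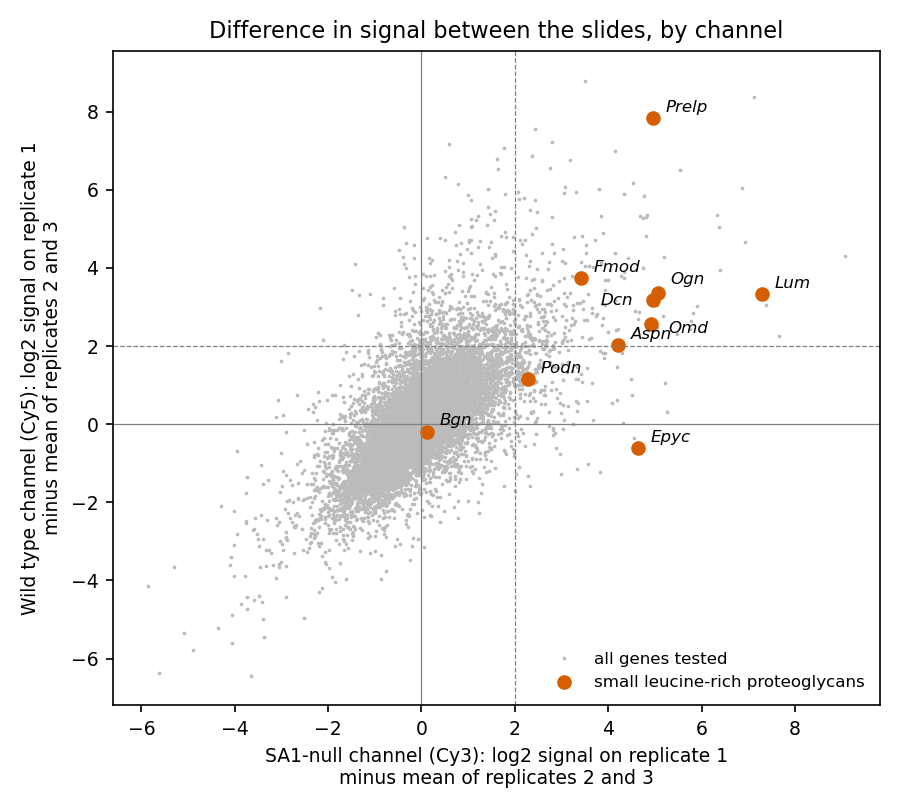
Difference in normalized log2 signal between replicate 1 (slide 1) and the mean of replicates 2 and 3 (slide 2), in the channel labelled SA1-null (x axis) and the channel labelled wild type (y axis), for all 18485 genes in grey and the 10 proteoglycan genes in orange. Dashed lines mark a 4-fold difference, and 7 of the 10 genes lie past both, with Bgn near 0 and Epyc past it in 1 channel only.

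Of the 3 listed relatives next to these genes on the chromosome, Kera and Ecm2 were brightest on replicate 1, and Optc was not. Kera, which encodes keratocan and lies between Lum and Epyc, was well above background in both channels of replicate 1 and in none of replicates 2 and 3. Its Cy3 spots gave 93, 32 and 31 and its Cy5 spots 291, 52 and 53.5. The spots of Ecm2, next to Aspn, gave Cy3 values of 187.5, 37.5 and 38 and Cy5 values of 1044, 65.5 and 60. These spots are before normalization. The median spot of all probes was 67, 55 and 68 in Cy3 and 234, 108 and 97 in Cy5, so Cy5 as a whole was brighter on replicate 1. Optc, which encodes opticin and lies next to Prelp, had normalized log2 signals of 6.48, 6.52 and 6.41 in the SA1-null channel and 6.52, 6.52 and 6.57 in the wild type channel. Of the 8 relatives listed, these 3 included, 5 passed the filter on dim spots, and 4 of these were below 0, with a median of -0.08 and 0 called by limma (1 at an unadjusted p under 0.05). Podnl1, a relative of podocan, had the smallest p among them (-0.52 ± 0.33, SD, n = 3, limma adjusted p = 0.655).

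The enzymes that build the sugar chains gave 1 call. Of 23 listed genes for the linker and for chondroitin or dermatan sulfate, 18 were measured, 11 above 0 and 7 below, with a median of 0.08. Pxylp1, a phosphatase that acts on the linker xylose, was called as higher in the SA1-null channel (2.03 ± 0.26, SD, n = 3, limma adjusted p = 0.0425), and 0 were called lower. Csgalnact1, which starts chondroitin chains, was at 1.12 ± 0.69, Dse, the epimerase that makes dermatan sulfate, at 0.67 ± 0.49, and Chpf, a chain polymerizing factor, at 0.48 ± 0.30. None of these 3 passed. Of 5 measured genes for keratan sulfate chains 3 were above 0, with a median of 0.03 and 0 called by limma (0 at an unadjusted p under 0.05 as well). B3gnt2 had the smallest p among them and was below 0 on all 3 arrays (-0.30, -0.47 and -0.23). The sulfotransferase gene Chst1, like Prelp, was below 0 on replicate 1 and above 0 on replicates 2 and 3 (-1.28, 1.62 and 1.58).

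The collagens that these proteins bind had ratios above 0 on more than 1 array, without passing the test. Of 11 measured genes, 10 were above 0 and 6 of these were so on every array, with a median of 0.74 and array medians of 1.63, 0.07 and 0.99. None was called by limma (0 of 11, with 4 at an unadjusted p under 0.05). Col3a1 (1.17 ± 0.60), Col6a1 (1.64 ± 0.98), Col6a2 (1.37 ± 0.82) and Col1a1 (1.14 ± 0.72) had the smallest p (SD, n = 3, limma adjusted p = 0.381 to 0.476). Between the slides their signals differed both ways in the wild type channel, from a log2 difference of -3.22 in Col5a3 to 2.41 in Col2a1. The median there was 0.00, against 2.87 over the 10 proteoglycan genes. In the SA1-null channel the median was 1.00, against 4.79, with Col5a3 at -1.66 and Col2a1 at 4.17. At least 4-fold higher on replicate 1 in both channels were 2 of the 11, Col2a1 and Col14a1.

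Binding partners and proteases gave few calls. Of 13 measured ligands and receptors, 4 were above 0, with a median of -0.05 and 0 called by limma (2 at an unadjusted p under 0.05). The biglycan and decorin receptor Tlr2 was at -2.21 ± 1.01 and the ATP receptor P2rx7 at -1.85 ± 0.77 (SD, n = 3, limma adjusted p = 0.244 and 0.218). Tlr2 is also a receptor of macrophages. Of 10 measured proteases and their helpers, Mmp3, a stromelysin that cleaves decorin, was called as lower in the SA1-null channel (-1.92 ± 0.09, SD, n = 3, limma adjusted p = 0.0312), and 0 were called higher. Mmp13 was at -1.66 ± 1.29 and Pcolce, an enhancer of collagen processing, at 0.67 ± 0.44, and neither passed. Other matrix proteoglycans had a median of -0.69 over 6 measured genes. Srgn, the proteoglycan of blood cell granules, was called as lower (-3.76 ± 0.59, limma adjusted p = 0.0275). Ncan and Bcan, proteoglycans of brain matrix, were at -5.98 and -3.42 on replicate 1 and between -0.31 and 0.03 on the other arrays, and did not pass.

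Markers of cell types that make these proteins, or that the cultures could hold, were set beside them. In each of the 6 samples 11 of 11 fibroblast markers were well above background, with flagged spots counted. Vim and S100a4 did not pass the filter, which leaves flagged spots out. The 9 that were tested had a median of 0.70, with 8 above 0 and 0 called by limma (4 at an unadjusted p under 0.05). Of the 12 cartilage markers, 8 were tested, 7 of them above 0, with array medians of 2.73, -0.04 and 0.00. Their summed signal was 0.0857% of the SA1-null channel on replicate 1 and 0.00433 and 0.00587% on replicates 2 and 3. In the wild type channel it was 0.0178, 0.00331 and 0.00298%. Comp, a cartilage and tendon matrix gene, was at 4.34 on replicate 1 and at -0.11 and 0.16 on the others, ratios near those of Epyc (5.20, 0.05 and -0.15). The signals of the 2 genes were not alike. Comp was higher on replicate 1 in both channels (a log2 difference of 7.38 in Cy3 and 3.06 in Cy5), and Epyc in Cy3 only (4.65 and -0.61). Matn1 and Sox5 were each not well above background in 5 of the 6 samples, and Sox9 was at 0.64 ± 0.33 (SD, n = 3, limma adjusted p = 0.543). Sox6 was below 0 on all 3 arrays (-0.58, -0.37 and -0.21). Of 5 tendon markers, 4 were tested, 3 of them above 0, with array medians of 2.57, -0.11 and -0.26. Tnmd was at 2.89, 0.56 and 0.52, and Thbs4 at 4.40, 0.05 and 0.14. Mkx was below 0 on all 3 arrays (-0.12, -0.27 and -0.79). The Tnmd signal was lower on replicate 1 than on the others (a log2 difference of -0.29 in Cy3 and -2.64 in Cy5). The part of cartilage or tendon cells in the values of replicate 1 was not tested, and in bulk samples fewer cells of a type and less RNA per cell cannot be told apart.

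Macrophage and blood cell markers went the other way on all arrays. All 17 measured markers were below 0 on 3 of 3 arrays, 9 of them called, with array medians of -3.06, -2.52 and -2.44. Their summed signal made up 0.0171 to 0.0536% of the SA1-null channel and 0.210 to 0.596% of the wild type channel. In the SA1-null channel Itgam was not well above background on replicates 2 and 3, nor Spi1 on replicate 2. The part of such cells in the ratios of the proteoglycan genes was not tested.

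**Figure D4:**
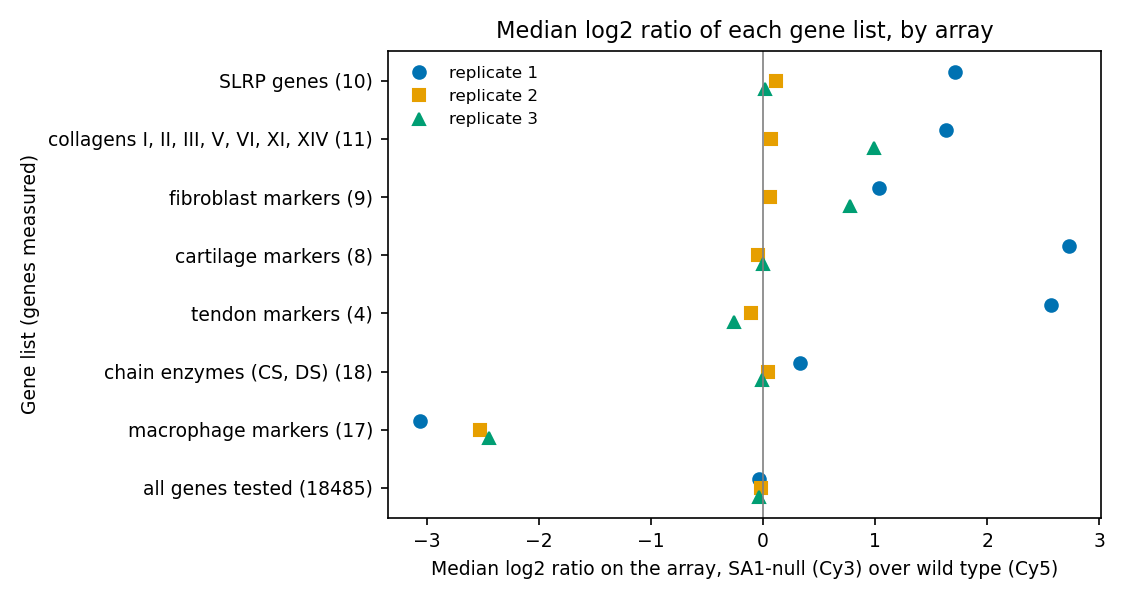
Median log2 ratio of each gene list on each array, SA1-null (Cy3) over wild type (Cy5), with the number of genes measured in brackets. The proteoglycan, cartilage and tendon lists stand apart from 0 on replicate 1 only, the collagens and fibroblast markers on replicates 1 and 3, and the macrophage markers on all 3 arrays.

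The authors' deposited log2 values, turned to the same direction, gave means of 1.40 for Bgn, 1.59 for Aspn, 1.68 for Epyc, 0.92 for Omd, 0.83 for Lum and 0.79 for Ogn. Those of Podn, Dcn, Prelp and Fmod lay between 0.34 and 0.43. All 10 were above 0, as in the values computed here, and the gap between replicate 1 and the others stood there too. Epyc was at -5.08, -0.11 and 0.16 in the deposited direction, Cy5 over Cy3.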

How the data were processed

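Spot and local background intensity values were taken from the scanner files, which Agilent's Feature Extraction wrote (10.1.1.1 on slide 1, 10.7.3.1 on slide 2, per the file headers). The deposited scanner files also hold processed intensity values and a log10 ratio, Cy5 over Cy3. The deposited log2 values were made with limma, per the submitters' processing notes, with background correction and centring not given in the sources used here. Their direction, Cy5 over Cy3, follows from correlations of 0.985, 0.982 and 0.997 with the ratios computed here after these were turned to Cy5 over Cy3. Their medians were -0.02, -0.02 and -0.01.

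Median spot signals were corrected with normexp (offset 50) and normalized by loess within arrays in limma 3.58.1 (R 4.3.3), with control and flagged spots at weight 0 and then left out. Probes had to be well above background in the same 1 channel on all 3 arrays, over unflagged spots. A probe with flagged spots could therefore fail this filter although bright. The brightest probe stood for each gene. Signals per channel were further quantile normalized on mean intensity (Aquantile), which forces the arrays to 1 distribution. The offset draws ratios of dim spots towards 0. Ratios were tested against 0 with lmFit and eBayes over all 18485 genes, adjusted by Benjamini-Hochberg, with a threshold of 0.05. The fit was also run on simulated data, where a pass was required only at a spread smaller than that of these data. Gene names come from the RefSeq table of assembly GRCm38.p6, matched without versions for 23374 probes. The array design names another assembly, so coordinates are given for promoters only. Precision is limited by the 3 arrays. The labels call the samples biological replicates without naming embryos, so p-values measure the spread between these samples.

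The genes named were all 10 members with every probe, Stag1, and in each other list the called genes and up to 4 with the smallest p, or up to 3 for cell type lists. Not every gene that this rule allows was named. All 5 sex-linked genes were named. Comp, Itgam, Spi1, Matn1, Sox5, Kera, Ecm2, Optc, Chst1, Col5a3, Col2a1 and Col14a1 were chosen after their values were seen. The members and lists were chosen with earlier results of these data known. The fixed lists also held bone markers (median 0.07 over 4 genes tested), muscle markers (-0.26 over 3), endothelial markers (0.24 over 3) and epithelial markers (-0.10 over 5), with 0 called in each. None of the 5 sex-linked genes passed the filter on dim spots.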

Additional observations from a re-analysis of the deposited data

How the results depend on the processing

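No proteoglycan gene was called in 18 of 19 alternatives, the exception being the slide as a fixed term (5 called). The median over the 10 genes stayed above 0 in all 18 alternatives that gave one (0.07 to 1.08), and leaving out 1 replicate gave 0.07 to 1.02. The number above 0 was 6 without replicate 1, and 6 to 10 over the 3 fits without 1 replicate. With median centring, where the median of all genes moved to -0.30, Dcn (-0.078), Fmod (-0.065) and Prelp (-0.016) turned below 0. Dcn turned with array weights (-0.22) and Prelp with the slide term (-0.14). Without 1 replicate, Dcn ranged from -0.32 to 0.68, Lum from -0.62 to 1.58, Omd from -0.0040 to 1.23, Epyc from -0.052 to 2.63 and Prelp from -0.32 to 1.30. Bgn, Aspn, Ogn and Podn kept their sign in all 18, though Podn was at only 0.0048 without replicate 1. The cause of these turns was not tested.

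The count of called genes, 58 of all tested, was 118 without background subtraction, 265 with an offset of 0, 326 with processed signals, 34 with median centring, 158 with scale normalization, 92 with both channels above background, 142 with a trended robust variance, 185 with array weights, 1770 with the slide term and 132 at a threshold of 0.1. It was 0 with no filter on dim probes (limma, 1990 at an unadjusted p under 0.05). With no replicate block, that is without pairing the channels by array, it was 0 as well (635 at an unadjusted p under 0.05). Without 1 replicate it ran from 0 to 284, where each fit rests on 2 arrays. It was 284 without replicate 1 and 0 without replicate 2 or without replicate 3 (limma, 1295 and 737 at an unadjusted p under 0.05). The count of 7 genes at least 4-fold higher on replicate 1 in both channels (1.36% of all genes) was set beside 4 alternatives chosen after seeing the data. It was 6 without normalization between arrays (0.958% of all genes), 7 without background subtraction (1.61%) and 7 with processed signals (2.56%). With a threshold of 2-fold in place of 4-fold it was 8 (5.67%). On replicates 2 and 3, Epyc, Omd and Podn lay near background, which limits their ratios there.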
